A study of Homo sapiens with 12 samples.

Results

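FOS, FOSB, FOSL1, FOSL2, JUN, JUNB and JUND encode the proteins that pair to form the transcription factor AP-1. Their chromatin was read from ATAC-seq peak lists, in which a peak marks DNA that a transposase could cut. Every peak whose summit lay inside the RefSeq span of 1 of these genes, or within 50 kb of it, was taken, and peaks that overlapped by 1 bp or more were merged into sites. The 7 genes held 178 such sites, of 166523 regions in the whole genome. Of the 18310 protein-coding genes with at least 3 sites, these 7 are described.

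MDA-MB-453 is an established line from a human breast cancer of luminal type that is classed as negative for estrogen receptor alpha (ER). Each of 3 engineered lines carried an inducible, ectopic ER: the wild-type form (WT), Y537S, whose changed ligand-binding domain is known to be active in the absence of estrogen, or K303R, a mutant of the hinge. Cells of each line were left untreated, given 1 nM estradiol (E2), given 2 ug/mL doxycycline (Dox, written as ug/mi in the labels), which induces the receptor, or given Dox and E2 together, for 2 days. That gave 12 libraries, 1 for each ER form and treatment, with no replicates. No Dox-treated line without the ER transgene is used here, so the induced receptor and Dox itself cannot be told apart. Tests of Dox and of E2 were possible over the 3 forms together, and no test was made inside 1 form. The p-values measure the spread between these cultures only. Peaks marked the starts of FOXA1, GATA3, SPDEF, XBP1 and ERBB2, all known in luminal breast cells, in 12 of 12 libraries, and of KRT8 in 9. KRT5, TP63, PDGFRB, PTPRC and CD14, markers of basal, stromal and immune cells, had none in any library, while ACTA2, a myoepithelial marker, had one in 9.

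The lists held 39522 to 133963 peaks per library, and the background level recovered from each list ran from 0.143 to 0.442 fragments. Over the ER forms together the background did not follow list length. Within WT it rose with list length, from 0.143 at 47190 peaks (untreated) to 0.361 at 82091 (Dox). Within K303R it fell, from 0.442 at 39522 peaks (untreated) to 0.192 at 102713 (Dox+E2). In Y537S the shortest list had the lowest background, 0.304, and the longest list the highest, 0.364. The value given for each peak is the authors' fold enrichment over the library's background, and the weakest listed peak had a value of 3.31 to 4.16. A site with no peak was below that level, which does not make it closed. Both WT libraries with Dox carry another peak-name prefix than the WT libraries without Dox, while the Y537S libraries share 1 prefix and the K303R libraries another. The sources used here do not say what the prefix stands for, so in WT it and Dox cannot be told apart.

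AP-1 proteins bind DNA as pairs through a leucine zipper. JUN proteins can pair with each other or with FOS proteins, whereas FOS proteins need a JUN partner. FOS, FOSB, JUN and JUNB are immediate early genes, switched on within minutes by growth factors, and the cAMP response element (CRE) and AP-1 sites in their promoters are part of that control. ER is known to act at some genes by contact with AP-1 already on the DNA, which ties this family to estrogen response in breast cells.

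The promoters of 5 members are shown because a peak lay over each of them and each holds an AP-1-type or CRE-type motif. They are RefSeq sequence of GRCh38.p14, from 210 bases before the start to 20 after it, 5′ to 3′ on the gene's strand. Capitals mark the motif matches.
FOS: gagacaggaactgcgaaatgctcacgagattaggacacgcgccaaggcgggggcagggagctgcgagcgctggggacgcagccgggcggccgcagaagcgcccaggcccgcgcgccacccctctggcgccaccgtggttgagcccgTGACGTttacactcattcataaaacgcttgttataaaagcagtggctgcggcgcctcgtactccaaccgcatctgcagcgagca
FOSB: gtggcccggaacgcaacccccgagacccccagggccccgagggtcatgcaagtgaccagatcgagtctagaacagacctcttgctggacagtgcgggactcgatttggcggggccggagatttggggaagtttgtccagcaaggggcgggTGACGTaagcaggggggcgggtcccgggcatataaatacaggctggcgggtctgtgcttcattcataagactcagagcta
FOSL2: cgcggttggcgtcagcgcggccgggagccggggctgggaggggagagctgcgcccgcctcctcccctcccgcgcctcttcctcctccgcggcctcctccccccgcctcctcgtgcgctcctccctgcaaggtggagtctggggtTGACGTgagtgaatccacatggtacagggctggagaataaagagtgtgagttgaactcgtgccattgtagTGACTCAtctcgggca
JUN: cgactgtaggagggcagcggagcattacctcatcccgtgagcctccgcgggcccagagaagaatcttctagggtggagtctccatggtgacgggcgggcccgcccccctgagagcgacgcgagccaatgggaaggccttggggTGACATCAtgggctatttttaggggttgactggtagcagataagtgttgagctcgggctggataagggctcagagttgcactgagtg
JUND: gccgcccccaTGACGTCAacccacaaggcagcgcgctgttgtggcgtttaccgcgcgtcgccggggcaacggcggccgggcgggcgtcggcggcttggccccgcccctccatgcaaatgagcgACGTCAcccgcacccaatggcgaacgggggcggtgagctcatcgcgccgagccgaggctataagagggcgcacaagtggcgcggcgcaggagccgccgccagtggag
They lie at chr14:75278618-75278847 on the plus strand for FOS, chr19:45467786-45468015 on the plus strand for FOSB and chr2:28392648-28392877 on the plus strand for FOSL2. The JUN stretch is chr1:58784028-58784257 and that of JUND chr19:18281603-18281832, both on the minus strand.

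Motifs were searched on both strands of the full 300-base windows. The AP-1 site TGANTCA was found in FOSL2 at position 5 after the start, and in 7.71% of the 35116 promoters in the table. TGACATCA, the variant that JUN is known to bind in its own promoter, lay 67 bases before the start of JUN and in 2.61% of promoters. The full CRE TGACGTCA lay 200 bases before the start of JUND and in 1.85% of promoters. Its 6-base part TGACGT, which also lies inside the full CRE, was present in FOS, FOSB, FOSL2 and JUND and in 7.98% of promoters. Capitals reading ACGTCA are this motif on the other strand. The palindromic estrogen response element was in none of the 6 member promoters in the table and in 0.0570% of all promoters. JUNB had no match to any of these motifs, and FOSL1 has no entry in the table. The 6 windows had a GC content of 62% in JUN to 77% in JUND, against a median of 58.7% over all promoters.

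At 5 of the 6 starts a peak was present in all 12 libraries; FOSB was the exception. Values below follow the order untreated, E2, Dox, Dox+E2. At the FOS start (chr14:75276813-75284708) the fold enrichment was 17.5, 27, 33.8 and 29.5 for WT, 39.1, 31.4, 32.4 and 32.3 for Y537S, and 15.3, 22.3, 22.3 and 30.2 for K303R. At the JUN start (chr1:58778113-58786052) it was 9.63, 27, 26.5 and 30.3 for WT, 36.0, 40.4, 33.9 and 45.5 for Y537S, and 9.02, 20.6, 19.0 and 28.5 for K303R. Both starts were lowest in the untreated WT and K303R libraries, which also had the shortest peak lists. Values with and without Dox overlapped at each.

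The FOSL2 start (chr2:28389700-28393181) had 13.1, 25.5, 36.7 and 26.3 for WT, 49.1, 35.2, 46.6 and 30.1 for Y537S, and 9.71, 16.5, 23.1 and 23.5 for K303R. The JUNB start (chr19:12791063-12795061) had 8.75, 15.4, 20.6 and 23.9 for WT, 39.1, 38.2, 30.8 and 27.1 for Y537S, and 9.71, 19.0, 17.4 and 30.2 for K303R. The JUND start (chr19:18277170-18283148) had 10.5, 14.7, 19.1 and 16.8 for WT, 26.8, 26.2, 24.1 and 21.3 for Y537S, and 13.2, 12.4, 19.8 and 25.2 for K303R. At all 3 starts the Y537S libraries without Dox were above the WT and K303R libraries without it. Regions open everywhere also had higher medians there, at 24.5 and 26.2 against 7.88 to 15.4.

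The FOSB start (chr19:45467497-45468645) was weaker. It had no peak in the untreated WT and K303R libraries, and its values in the other 10 libraries ran from 5.37 to 10.7.

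**Figure D1:**
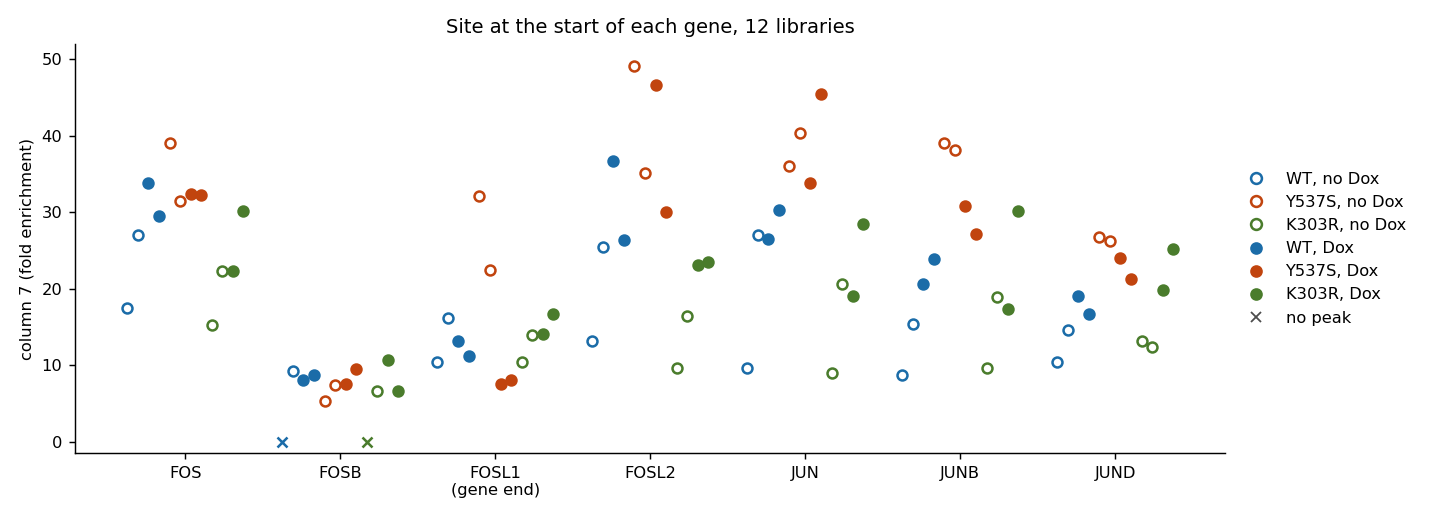
Fold enrichment (the authors' value per peak, vertical axis) at the start of each gene (FOSL1: the upper end of its span) in the 12 libraries, with filled markers for Dox. FOSB, with values of 5.37 to 10.7 in 10 libraries, has the lowest maximum, and the filled and open markers of every gene overlap.

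FOSL2 encodes FRA-2, a FOS protein without the strong activation domain of FOS. It had 26 sites, of which 4, 5, 16 and 11 were open for WT, 5, 7, 16 and 17 for Y537S, and 3, 5, 9 and 12 for K303R. Every library with Dox had more open FOSL2 sites than any library without. The mean was 13.5 ± 3.27 with Dox and 4.83 ± 1.33 without (SD, n = 6 each), a difference of 8.67 sites (exact permutation of Dox labels within ER forms, two-sided p = 0.00926, the smallest it allows; adjusted p = 0.0816 over all genes). Such a lack of overlap with higher counts under Dox was seen in 2.74% of all genes tested.

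The sites that carried this difference lay before the gene. Of the 26 sites, 16 were 5.67 to 49.6 kb before the start, a grouping made after their values were seen. The 10 farthest of them, 4.37 to 25.0 kb from BABAM2, are nearer to that gene than to FOSL2, among them the 3 sites gained in all 3 forms. No site among these 16 had a peak in any of the 6 libraries without Dox. With Dox, 11 and 7 were open for WT, 12 and 10 for Y537S and 3 and 8 for K303R (Dox first, then Dox+E2). The remaining 10 FOSL2 sites showed no such split, with 4, 5, 5 and 4 open for WT, 5, 7, 4 and 7 for Y537S, and 3, 5, 6 and 4 for K303R.

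Gained is used here for a site with a peak in both Dox libraries of a form and in neither without Dox, and lost for the reverse. Of the 26 FOSL2 sites, 2 were lost in Y537S, as 6.71% of all regions were. They lay 0.57 and 4.10 kb after the start, with 9.20 and 11.2, and 3.83 and 6.74, without Dox. Both had a peak in K303R with Dox+E2, of 6.71 and 3.36. FOSL2 had 3 sites gained in all 3 forms, a pattern seen in 1.3% of all regions. The site 44.8 kb before the start (chr2:28347735-28348621) had 7.35 and 9.58 for WT, 24.1 and 19.1 for Y537S, and 5.79 and 7.55 for K303R. The site at 37.1 kb (chr2:28355480-28356566) had 13.2 and 16.8 for WT, 33.1 and 11 for Y537S, and 4.13 and 5.87 for K303R. At 31.8 kb (chr2:28360854-28361580) the values were 8.08 and 7.98 for WT, 11.3 and 12.5 for Y537S, and 4.96 and 6.71 for K303R. At each of the 3 sites both Y537S values exceeded both K303R values. Regions open everywhere also had higher medians in Y537S with Dox and Dox+E2, at 18.8 and 18.3 against 14.1 and 15.1 in K303R.

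A further pair of FOSL2 sites was gained in WT and Y537S and had a K303R peak with Dox+E2 alone. At 46.0 kb before the start (chr2:28346593-28347373) the values were 4.41 and 16.0 for WT, 18.8 and 19.1 for Y537S, and 6.71 for K303R. At 33.6 kb (chr2:28359111-28359741) they were 5.88 and 6.39 for WT, 9.03 and 8.07 for Y537S, and 5.03 for K303R. Over all peaks at the 16 distant sites the median fold enrichment was 9.03 for Y537S, 6.87 for WT and 5.03 for K303R. This is a description of 22, 18 and 11 peaks, from 1 Dox and 1 Dox+E2 library each. In these libraries the regions open everywhere had medians of 18.8 and 18.3 for Y537S, 13.2 and 11.2 for WT, and 14.1 and 15.1 for K303R. The weakest listed peak had 3.31 and 3.36 for K303R, against 3.67 to 3.99 for the other forms.

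The FOSL2 difference kept an exact permutation p of 0.00926 (adjusted p = 0.083) when open sites were counted per 10000 open regions of the library. It shrank to 2.5 sites when every list was shortened to 39522 peaks (exact permutation p = 0.0370), and to 2.67 sites among peaks with a −log10 q of at least 10 (p = 0.0833). At that −log10 q the site at 37.1 kb was gained in 2 forms and those at 44.8 and 31.8 kb in 1 each.

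A site 44.0 kb after the FOSL2 start (chr2:28436300-28437765) differed in the other direction. It was open in all 12 libraries, with 6.12, 15.4, 8.08 and 7.98 for WT, 33.0, 40.4, 15 and 11 for Y537S, and 10.4, 20.6, 10.7 and 10.9 for K303R. Among the regions open everywhere it ranked at the 24.5th percentile with Dox and the 63.8th without, on average (exact permutation p = 0.0185, adjusted p = 0.136).

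**Figure D2:**
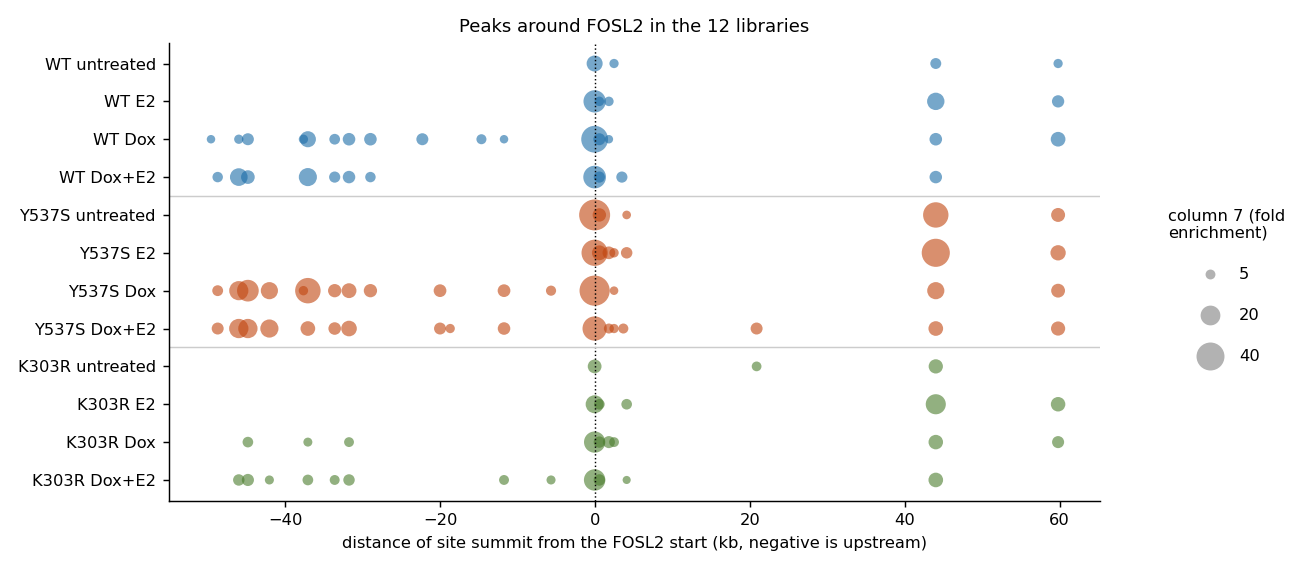
Sites around FOSL2 by distance from its start (kb, horizontal axis) in each of the 12 libraries, with marker area proportional to fold enrichment. To the left of the start, beyond 5 kb, markers are present in libraries with Dox and in none without.

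FOS, the founding member of its branch, had 25 sites. Of these, 6, 12, 16 and 13 were open for WT, 11, 10, 11 and 16 for Y537S, and 9, 10, 19 and 15 for K303R. The mean was 15 ± 2.76 with Dox and 9.67 ± 2.07 without (SD, n = 6 each), and the groups overlapped (exact permutation p = 0.0185, adjusted p = 0.103). Per 10000 open regions the difference was 0.20 sites (exact permutation p = 0.50). The exact permutation p was 0.0556 at 50% cover of a region, 0.0741 in a 20 kb window and 0.0625 when Dox labels were swapped within the 6 matched pairs of the same ER form and E2 state. It was 0.00926 in a 100 kb window, and 0.0185 at a −log10 q of at least 5 or 10 and at equal list length.

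One FOS site, 26.2 kb before the start (chr14:75252006-75252995), had no peak in 5 of the 6 libraries without Dox. Its fold enrichment was 3.86 in WT with E2, then 14.0 and 16.8 in WT with Dox and Dox+E2, 42.1 and 35.2 for Y537S, and 9.09 and 9.23 for K303R. It was gained in Y537S and K303R, and in all 3 forms once peaks with a −log10 q under 5 were left out. A second site, 11.3 kb after the start (chr14:75289854-75290228), was gained in WT and K303R with 4.13 to 5.88, and had 6.60 in Y537S with Dox+E2. It was gained in 1 form at a −log10 q of at least 5, and in 0 at 10, at equal list length or at 50% cover of a region.

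By median the strongest FOS site away from the start lay 19.6 kb before it (chr14:75258588-75260542). Its fold enrichment was 20.1, 51.7, 39.7 and 42.3 for WT, 52.9, 70.4, 66.2 and 60.9 for Y537S, and 24.3, 33.0, 32.2 and 42.8 for K303R. It ranked at the 97.8th percentile of everywhere-open regions with Dox and the 97.2nd without (exact permutation p = 0.565, adjusted p = 0.767). Its values with and without Dox overlapped.

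FOSB, a close relative of FOS, had 27 sites. Of these, 12, 16, 22 and 19 were open for WT, 18, 19, 17 and 19 for Y537S, and 8, 12, 18 and 19 for K303R. The mean was 19.0 ± 1.67 with Dox and 14.2 ± 4.22 without (SD, n = 6 each; exact permutation p = 0.0463, adjusted p = 0.163). The unadjusted exact permutation p exceeded 0.05 when any 1 of 6 libraries was left out (WT untreated, Dox or Dox+E2, Y537S Dox+E2, K303R untreated or E2), with values up to 0.0833, and was 0.880 per 10000 open regions. It was 0.0926 at a −log10 q of at least 10, 0.278 at equal list length, 0.0833 at 50% cover of a region and 0.102 in a 100 kb window, and 0.125 when labels were swapped within matched pairs. The exact permutation p was 0.00926 in a 20 kb window and 0.0370 at a −log10 q of at least 5.

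One FOSB site was gained in all 3 forms. It lay 19.0 kb before the start (chr19:45448814-45449144), inside ERCC1, a DNA repair gene, with values of 5.88 and 7.18 for WT, 6.02 and 5.87 for Y537S, and 7.44 and 5.87 for K303R. These values are near the lower limit of the lists, and no form kept the gain at a −log10 q of at least 10. A pair of everywhere-open FOSB sites ranked higher with Dox: that 12.1 kb before the start at the 70.2nd against the 38.4th percentile, and that 1.26 kb after it at the 37.6th against the 12.6th (exact permutation p = 0.0278 and adjusted p = 0.163 for each). For the latter, p was 0.0556 to 0.0648 without 1 of 4 libraries (Y537S Dox or Dox+E2, K303R untreated or E2). By median the strongest FOSB site away from the start, 17.5 kb after it and inside RTN2, had a peak in all 12 libraries, of 10.5 to 36.9.

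FOSL1 encodes FRA-1, the other FOS protein without a strong activation domain. Its window holds 11 protein-coding genes, itself included, so its 19 sites cannot be assigned to it alone. Open sites numbered 7, 10, 7 and 8 for WT, 12, 17, 10 and 10 for Y537S, and 6, 8, 9 and 9 for K303R. The mean was 8.83 ± 1.17 with Dox and 10.0 ± 4.05 without (SD, n = 6 each; exact permutation p = 0.491, adjusted p = 0.701). Per 10000 open regions FOSL1 had 0.68 fewer with Dox (exact permutation p = 0.00926).

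The site at the upper end of the FOSL1 span (chr11:65900198-65900915) was open in all libraries. It had 10.5, 16.2, 13.2 and 11.2 for WT, 32.2, 22.5, 7.52 and 8.07 for Y537S, and 10.4, 14.0, 14.1 and 16.8 for K303R. Its mean percentile was 37.1 with Dox and 60.5 without (exact permutation p = 0.0185, adjusted p = 0.136). In Y537S it went from 54.3 without Dox to 7.98 with it, and without 1 or the other Y537S Dox library the exact permutation p was 0.111. It was 0.0556 to 0.0648 without WT untreated, WT E2 or K303R untreated. Inside FOSL1, a site at chr11:65893304-65893655 was lost in Y537S, with 6.90 and 7.49 without Dox and no peak with it. This site also had 6.17 in WT with E2 and 4.13 in K303R with Dox, and no peak elsewhere. By median the strongest site in the FOSL1 window (chr11:65856881-65858767) had 8.75 to 35.2 and was open in all 12 libraries.

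JUN had the fewest sites of the family, 11. Of these, 2, 3, 4 and 2 were open for WT, 5, 5, 4 and 6 for Y537S, and 3, 2, 4 and 4 for K303R. The mean was 4.00 ± 1.26 with Dox and 3.33 ± 1.37 without (SD, n = 6 each; exact permutation p = 0.352, adjusted p = 0.558), and the sign of the difference turned per 10000 open regions. One JUN site, 21.0 kb before the start and inside the divergent transcript JUN-DT (chr1:58804883-58805526), was gained in Y537S with 26.3 and 24.9. It had 5.14 in WT with Dox, 4.20 in K303R with Dox+E2 and no peak elsewhere. By median the strongest JUN site away from the start, 31.3 kb before it, had 5.55 to 35.2 and a peak in all 12 libraries.

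JUNB, which activates many AP-1 genes more weakly than JUN, had 32 sites in a window with 9 protein-coding genes. Open sites numbered 12, 21, 22 and 19 for WT, 22, 25, 18 and 21 for Y537S, and 13, 18, 24 and 22 for K303R. The mean was 21.0 ± 2.19 with Dox and 18.5 ± 5.17 without (SD, n = 6 each; exact permutation p = 0.370, adjusted p = 0.578), with the sign turned per 10000 open regions. Of the 12 member sites lost in Y537S, 5 were JUNB sites. Of these, 3 were also gained in K303R, a pattern seen in 0.743% of all regions; gain in any 1 form with loss in another was seen in 0.94%, and in the family at the same 3 sites. A JUNB site 3.99 kb after the start (chr19:12795204-12795672) had a peak in every Y537S library, of 4.51 to 5.24, and in none of the other 8. The weakest listed peaks of the Y537S libraries had 3.67 to 3.83. Their lists were also the longest, at 106291 to 133963 peaks against 39522 to 102713 in the other 8. The part of list length at this site was not tested. By median the strongest JUNB site away from the start, 16.4 kb before it and inside HOOK2, had 7.88 to 46.4 and was open in all 12 libraries.

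JUND, the member known for steady expression in resting cells, had 38 sites, the most in the family, in a window with 5 protein-coding genes. Of these, 5, 9, 24 and 15 were open for WT, 9, 9, 15 and 14 for Y537S, and 5, 6, 14 and 16 for K303R. As for FOSL2, every library with Dox exceeded every library without. The mean was 16.3 ± 3.83 with Dox and 7.17 ± 2.04 without (SD, n = 6 each), a difference of 9.17 (exact permutation p = 0.00926, adjusted p = 0.0816). It was 1.5 at equal list length (exact permutation p = 0.0463).

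Of the 38 JUND sites, 17 were open in 1 library: 9 in WT with Dox, 2 in Y537S with Dox, 2 and 3 in K303R with Dox and Dox+E2, and 1 in untreated Y537S. That share was above the 27.5% of the family's sites (49 of 178, JUND included) and the 32% of all regions open in 1 library. One site, 19.7 kb before the start (chr19:18301149-18301479), was gained in all 3 forms, with 7.35 and 6.39 for WT, 7.52 and 11.7 for Y537S, and 4.96 and 5.03 for K303R. Another, 4.77 kb after the start (chr19:18276219-18277074), was gained in WT with 4.41 and 6.39 and in Y537S with 5.27 and 10.3, and had no peak in K303R. Neither was gained in any form at a −log10 q of at least 10. By median the strongest JUND site away from the start, 47.0 kb before it, had 4.38 to 37.6 and was open in all 12 libraries.

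**Figure D3:**
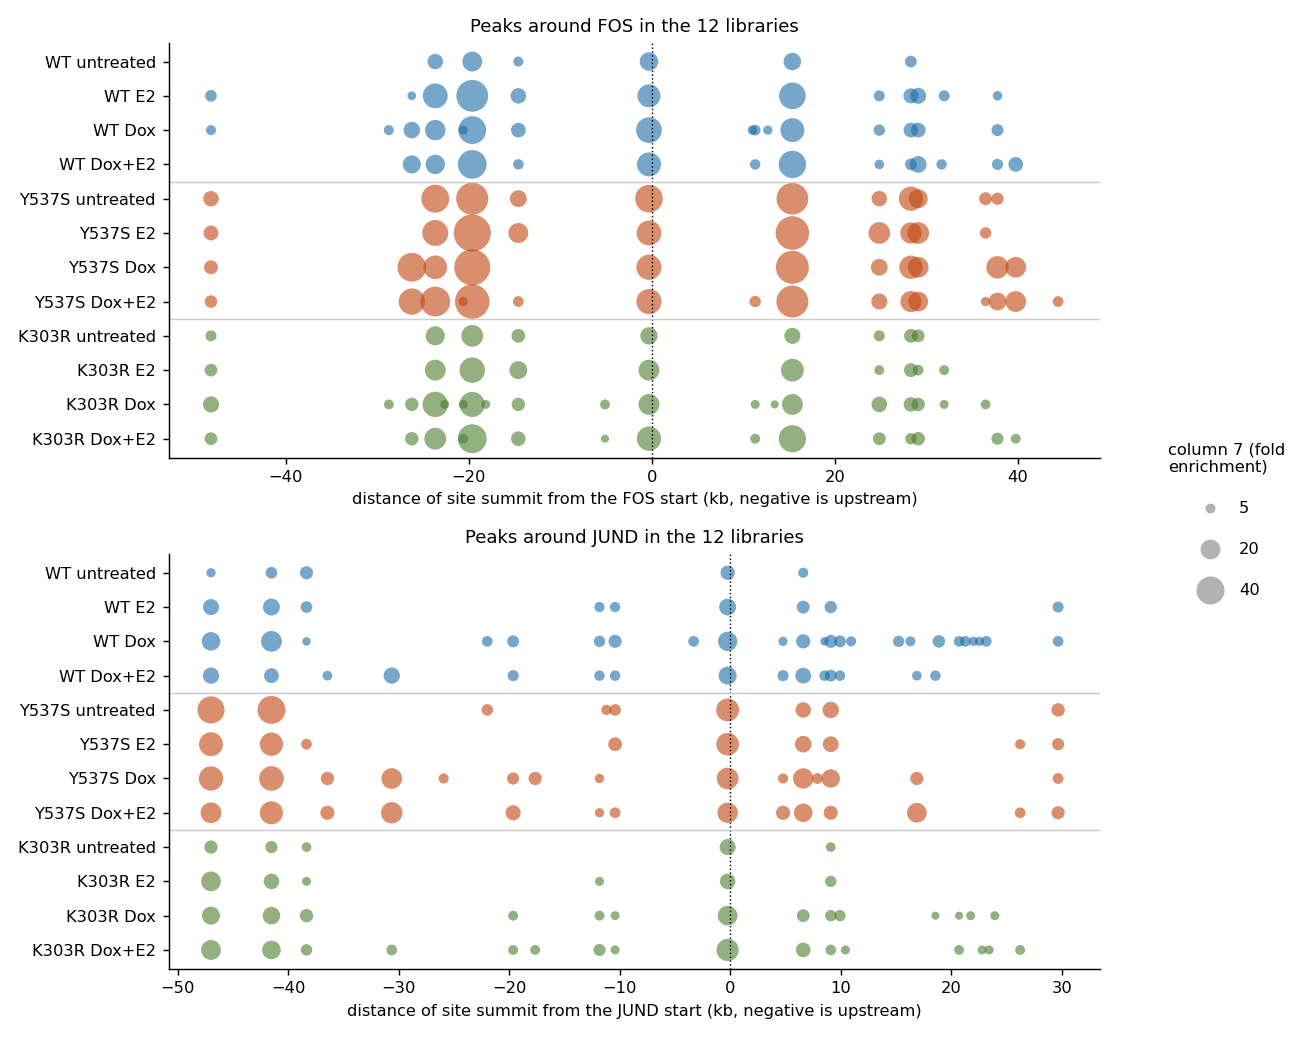
Sites around FOS and JUND by distance from each start (kb, horizontal axis) in each of the 12 libraries, with marker area proportional to fold enrichment. The FOS site 26.2 kb before the start is marked in all 6 libraries with Dox and in 1 without.

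Over the family, 4 of 7 genes (FOSL2, JUND, FOS and FOSB) had more open sites with Dox at an unadjusted p of 0.05 or less, against 28.3% of all genes tested, and none had fewer, against 0.0601%. The counts of no member lay wholly lower with Dox, which 0.00546% of genes showed. No gene in the genome passed an adjusted p of 0.05. In Y537S and K303R both libraries with Dox had longer lists than both without, and in WT the lengths overlapped. Counted per 10000 open regions, 1695 genes of the genome had more sites and 3133 fewer, in place of 5182 and 11, and at equal list length 749 and 843.

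**Figure D4:**
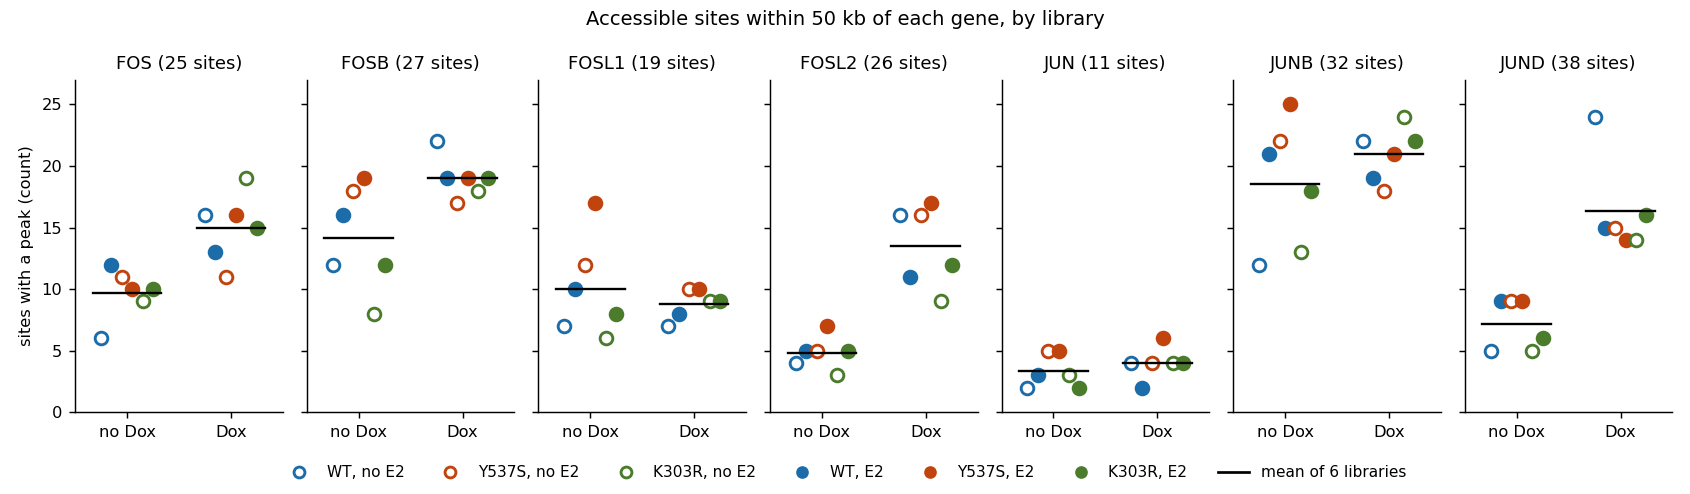
Number of open sites (vertical axis) of each gene in the 12 libraries, without and with Dox, with filled markers for E2 and a line at the mean of 6 libraries. The groups do not overlap for FOSL2 and JUND.

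By ER form, 15 of the 178 sites were gained in WT (8.43%, against 4.14% of all regions), 20 in Y537S (11.2%, against 18.2%) and 19 in K303R (10.7%, against 8.54%). FOSL2 held 6, 9 and 3 of them and JUND 4, 6 and 4. Lost sites were found in Y537S, 12 of 178, against 6.71% of all regions. None were lost in WT, against 2.08%, or in K303R, against 0.0799%. Gains shared by at least 2 forms numbered 10, against 4.08% of regions, and were at FOSL2 (5), FOS (2), JUND (2) and FOSB (1). Gains shared by all 3 forms numbered 5 (2.81%, against 1.3% of regions). No site was lost in 2 forms or more, against 0.609% of regions. Sites with peaks in 2 or more libraries, all of them with Dox, numbered 35 (19.7%, against 21.1% of regions), of which FOSL2 held 12 and JUND 10. The reverse, all without Dox, numbered 3 (1.69%, against 3.36%), with 2 at FOSL1 and 1 at FOSB.

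For E2, no p of 0.05 or less was found among the 7 genes, with exact permutation p-values of 0.213 for FOSL1 to 1 for JUN. At that level 0.284% of all genes had more sites with E2 and 0.0109% fewer. FOSL2 differed by 0.67 sites, FOS by 0.67 and JUND by -0.50. With Dox present, 5 member sites had peaks in both Y537S Dox libraries and in WT with Dox+E2 but not Dox, none without Dox (3.16% of all regions). The reverse in WT was seen at 2 (0.969%). For K303R the counts were 7 (4.02%) and 0 (0.566%). At the FOS site 39.8 kb after the start (chr14:75318285-75318774), for example, the values were 21.8 and 22 for Y537S, 11.2 in WT with Dox+E2 and 5.03 in K303R with Dox+E2.

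Of the 178 sites, 33 were open in all 12 libraries, against 9.99% of all regions. JUNB and FOSB had 8 each, FOSL1 and FOS 5 each, JUND 3, and FOSL2 and JUN 2 each. Of the 33, 2 ranked higher with Dox at an unadjusted p of 0.05 or less (10.8% of all such regions did) and 2 lower (11.7%). With E2, 2 ranked higher (1.68%) and 1 lower (1.09%). Those higher with E2 were the JUN start and a FOSB site 44.1 kb before its start, and the lower one lay 28.3 kb after the FOS start. The JUN start was 14.0 percentile points higher with E2 (exact permutation p = 0.0463, adjusted p = 1), and p was 0.0556 to 0.0926 without 1 of 6 libraries (WT E2 or Dox+E2, Y537S untreated or Dox+E2, K303R untreated or Dox). For the FOSB site p was 0.0556 to 0.0833 without 1 of 4 libraries (WT E2, Y537S E2 or Dox+E2, K303R untreated). For the FOS site it was 0.0741 to 0.139 without 1 of 6 (WT or K303R E2 or Dox+E2, Y537S untreated or Dox).

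**Figure D5:**
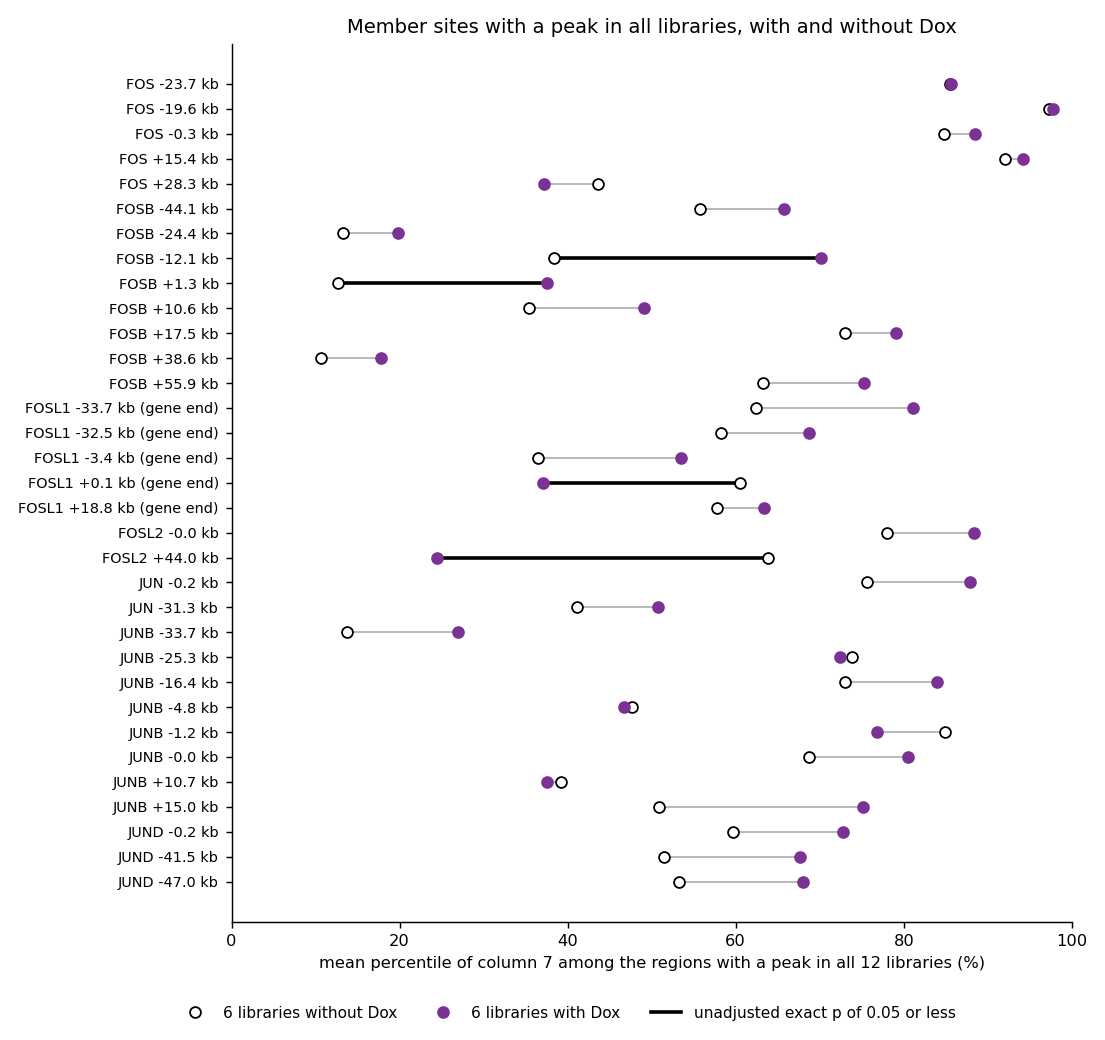
Mean percentile of fold enrichment among everywhere-open regions (horizontal axis) for the 33 member sites, each on its own row. Open markers are without Dox and filled markers with Dox. The FOSL2 site 44.0 kb after the start lies furthest down with Dox against without, at 24.5 with Dox and 63.8 without.

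Other genes of the pathway were taken from lists. Of 13 AP-1 partner genes, 7 had more open sites with Dox at an unadjusted p of 0.05 or less. So did 7 of 14 upstream kinases and serum response factors, 7 of 16 other immediate early genes and 4 of 12 AP-1 target genes, against 28.3% of all genes, and none had fewer, against 0.0601%. The windows of 4 pairs of these genes overlap (ATF3 and BATF3, BATF and JDP2, ELK1 and TIMP1, MMP1 and MMP3), so that such a pair shares sites. Median differences were 2.83, 1.75, 2.5 and 1.33 sites, against 4.83 for the family and 1.33 for all genes, and the family also had more sites per gene, with a median of 26 against 14. ATF4, a stress response factor, and ZFP36, which encodes a protein that destabilises mRNA, each had 4 sites gained in all 3 forms. Their windows hold 6 and 7 protein-coding genes, themselves included, so these sites cannot be assigned to them alone. ZFP36 had a mean of 15.7 open sites with Dox and 8.17 without (exact permutation p = 0.00926, adjusted p = 0.0816). JDP2, a repressing partner of JUN, IER3, an immediate early survival gene, and CD44, a hyaluronan receptor, had 2 each. A site gained in all 3 forms was present near 3 of the 7 family genes and 14.7% of all genes.

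For each member the gene on another chromosome with the most similar share of open regions over the 12 libraries was found by Pearson's r. FOSL2 was most like CST1 (r = 0.984), which had 1, 1, 8 and 6 open sites for WT, 0, 1, 7 and 7 for Y537S, and 1, 1, 4 and 4 for K303R. JUND was most like MIEF1 (0.965), FOSB like ACBD4 (0.964), FOS like SMIM10L2B (0.950), JUN like DNAJC7 (0.950), JUNB like N4BP3 (0.939) and FOSL1 like LOC124901228 (0.952). Each is the highest of 15076 to 16326 comparisons over the same 12 libraries, whose depth the genes share, and carries no test. MIEF1 lies in the window of ATF4, so the windows of MIEF1 and ATF4 overlap and are not separate observations.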

How the data were processed

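ATAC-seq was run on 12 libraries. The submitters' processing notes name Bowtie2, MACS2, Picard, SAMtools and FastQC and build hg38; the sources used here give no versions or settings and no shift of reads for the transposase. The authors deposited 1 peak list per library, with the fold enrichment of each peak (a ratio to the library's background) and its −log10 p and −log10 q. Depth is given only through these: fold values were whole multiples of 1 step per library to within 0.000772, and the recovered pileup of the weakest listed peak was 3 to 5 fragments.

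From the lists, peaks on chromosomes 1 to 22 and X were merged at 1 bp overlap, and a region was open in a library with a peak in it. Gene spans were read from the RefSeq table (GRCh38.p14), and promoters from a table of 250 bases before to 50 after each start. Open sites per gene, and the percentile of fold enrichment among the 16630 regions open in all libraries, were compared by exact two-sided permutation, inside each ER form, of the Dox or the E2 labels (216 arrangements), with Benjamini-Hochberg adjustment over all genes or all such regions. The labels state groups by ER form and treatment.

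Sites named are those at each start, those gained or lost in at least 2 forms, otherwise the strongest in 1 form, those with a peak in all 4 libraries of 1 form and in no other, and the strongest away from the start by median fold enrichment over the libraries where it is open; others named (such as the FOS site 39.8 kb after its start) were chosen after their values were seen. Related genes are named by their sites gained in all forms. The members and lists were chosen with earlier results of these data known. Markers were counted as peaks at gene starts; KRT18, KRT19, KRT14, COL1A1, COL1A2, DCN and CD3E have no promoter entry and were not used here, and some other markers are not reported here. Alternatives were −log10 q minimums of 5 and 10, equal list length, 50% cover of a region, windows of 20 and 100 kb, shares of open regions, each ER form left out and, chosen after seeing the data, each library left out and swaps within matched pairs. The counting was tested on simulated data. Python 3.11.15, numpy 2.4.6, pandas 2.3.3 and matplotlib 3.10.9 were used.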

Additional observations from a re-analysis of the deposited data

Results flagged for a closer look

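A group of 3 JUNB sites was gained with Dox in K303R and lost with Dox in Y537S, a pattern present in 0.743% of all regions; the difference between the forms was not tested. They lay 42.3, 43.1 and 43.9 kb after the JUNB start, at chr19:12833581-12834289, chr19:12834432-12834851 and chr19:12835247-12835802. At 42.3 kb the fold enrichment was 6.13 and 6.74 in Y537S without Dox, and 5.79 and 3.36 in K303R with Dox. At 43.1 kb it was 5.37 and 5.99 for Y537S, and 4.13 and 4.20 for K303R. At 43.9 kb it was 9.20 and 4.49 for Y537S, and 4.13 and 8.39 for K303R. The first and second lie in RTBDN, and all 3 also had a peak in WT with E2, of 6.94 to 7.72. The third also had peaks in WT with Dox, of 8.08, and with Dox+E2, of 7.19. The values are near the lower limit of the lists, and that limit differed between the K303R libraries: the weakest listed pileup was 5 and 4 fragments without Dox and 3 and 3 with it. Its part in the pattern was not tested.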

How the results depend on the processing

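No paired analysis was possible because the labels give no replicate numbers, apart from pairs matched by treatment. Swapping labels within the 6 pairs of the same ER form and other treatment (64 arrangements, smallest exact p 0.03125; chosen after seeing the data) gave 2695 genes for Dox, 210 for E2 and 2417 regions in rank for Dox. FOSL2 and JUND stayed at the smallest p, and FOS, FOSB, the FOSL1 end site and both FOSB sites higher with Dox exceeded 0.05. With 1 ER form left out the smallest exact p is 0.0556, so no count past 0.05 exists there. Against 15, 20 and 19 member sites gained in WT, Y537S and K303R, a −log10 q of at least 5 gave 5 for K303R, and one of at least 10 gave 5 for WT and 10 for K303R. Equal list length gave 9 for Y537S and 4 for K303R, a 20 kb window 8, 7 and 9, and a 100 kb window 32 for Y537S. Lost sites, 12 for Y537S and 0 for WT and K303R, became 1 for WT at a −log10 q of at least 5 and at 50% cover. In Y537S they became 2 at 10, 7 at equal length and 3 at 20 kb, and in K303R 1 at equal length. Genes with a Dox difference (5193) numbered 2905 and 1987 at a −log10 q of at least 5 and 10, and 1592 at equal length; those with an E2 difference (54) numbered 190, 263 and, as shares, 381. Everywhere-open regions that differed in rank with Dox (3745) numbered 1011 at 10, 1619 at equal length and 369 at 50% cover; with E2 (462) they numbered 138 and 55 at 10 and 50% cover. Leaving out 1 library gave 2679 to 7009 genes for Dox, 21 to 361 for E2, 2825 to 4057 regions for Dox and 439 to 687 for E2. It gave 15 to 43, 21 to 32 and 20 to 38 gained sites in WT, Y537S and K303R, and 0 to 6, 14 to 20 and 0 to 2 lost. Leaving out a library of a form loosens the rule for gained and lost sites in that form. These site counts could therefore only stay or rise, and their ranges are no check of the main counts. JUNB had an exact p of 0.0463 in the 20 kb window. The cause of the other shifts was not tested. The number of fragments behind weak sites, as few as 3, limits calls of presence.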
